A study of Homo sapiens with 9 samples.

Results

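Both HaCaT lines that carry an actin transgene, NLS-actin and WT-actin, were taken as 1 group of 6 arrays and set against the 3 arrays of the HaCaT parental line, which together are all 9 arrays of the study. HaCaT is a spontaneously immortalised human keratinocyte line. NLS-actin cells stably express β-actin fused to GFP and a nuclear localization sequence, which moves actin into the nucleus, WT-actin cells stably express β-actin fused to GFP without that sequence, and parental cells carry neither construct. The study set both actin lines beside the parental line to find genes that respond to nuclear actin, and the comparison described here asks which genes differed in the same direction in both. Each actin line was made by transfection of a linearised plasmid and drug selection with G418 until a GFP-positive population was stable, and the promoter of the transgenes is not given in the sources used here. A line selected in the same way without an actin transgene was not among the arrays, so the effect of expressed actin and the effect of making a stable line cannot be told apart.

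RNA levels were measured on U133 Plus 2.0 arrays, which read each transcript with 1 or more sets of short probes. The values are MAS5 signals, linear intensities that were converted to log2, and each of the 19775 genes was represented by its brightest probe set. A gene is described here only if its value was shifted the same way in both actin lines and if all 6 actin arrays lay beyond all 3 parental arrays. Of the 19775 genes, 576 (2.91 percent) met this rule. They were 243 genes (1.23 percent) with higher values in the actin lines and 333 (1.68 percent) with lower values. The split depended on the processing. When each array's median was subtracted, 349 were higher and 138 lower, after quantile normalization 251 were higher and 280 lower, and when each gene's probe sets were averaged, 156 were higher and 425 lower. The rule used the same values as the comparison, so that non-overlap is a description of these genes and not a test. With array labels given at random, a gene would meet the rule in a given direction with a probability of 0.0119, just over 1 percent. The 1.23 percent with higher values was close to that level, and the 1.68 percent with lower values was above it. Whether either share exceeds it was not tested. Membership of the 576 alone is therefore no sign of a shared response.

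Cells hold actin in the cytoplasm, where it forms the filaments that drive adhesion and migration, and in the nucleus, where it takes part in chromatin remodelling and transcription. Actin monomers also bind MRTF, a cofactor of the transcription factor SRF, so that the balance of monomer and filament sets the activity of many contractile genes. Keratinocytes further respond to stress and to bacterial products with chemokines, many of which are switched on through NF-κB, a factor held in the cytoplasm by the inhibitor that NFKBIA encodes.

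The cells had the profile of keratinocytes in all 9 arrays. The summed signal of 11 genes of basal keratinocytes was 60959 to 77620 in the actin lines and 50725 to 62858 in the parental line, and none of them passed the threshold. The median log2 difference of the 11 was 0.18, but 0.03 after quantile normalization and -0.00 with averaged probe sets. Melanocyte, endothelial and leukocyte markers summed to at most 228 in an actin array and 115 in a parental array. The 6 fibroblast markers summed to 304 to 1184 in the actin arrays and 481 to 964 in the parental arrays, and COL1A1 made up most of it (284 to 1057 in the actin arrays and 380 to 794 in the parental arrays). The trimmed mean was set by MAS5 to 499.94 to 499.96 in all arrays, while the median signal ranged from 29.67 to 43.26. NLS-actin replicate 2, WT-actin replicate 1 and parental replicate 2 each had the highest log2 ratio of the 3′ to the 5′ ACTB control probe set in their line, at 3.68, 3.90 and 2.99, a measure that rises as RNA is degraded or copied incompletely. The same ratio for GAPDH was the highest of its line in WT-actin replicate 1 (1.62). In NLS-actin replicate 2 (0.72) and parental replicate 2 (0.49) it was the lowest of the line, so ACTB and GAPDH did not order the arrays alike. Whether RNA quality set these arrays apart was not tested. These 3 arrays, 1 per line, also departed together. Across genes, their deviations from the means of their lines correlated at 0.586 to 0.79 with each other. With the ACTB ratio as a covariate the pooled fit below called the same number of genes. Without the 3 arrays that fit called 0, with 864 at an unadjusted p under 0.05.

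ACTB, the gene whose coding sequence the transgenes carry, was among the brightest genes of every array. Its signals were 14473, 13886 and 15475 in NLS-actin cells, 22131, 15924 and 14097 in WT-actin cells, and 8874, 13241 and 14977 in the parental line. The groups overlapped, and the log2 difference of 0.39 (standard error 0.17, adjusted p = 0.94 from limma) did not pass. The 3 ACTB control probe sets, which lie at the 5′ end, in the middle and at the 3′ end of the transcript, differed by 0.02, 0.15 and 0.38 on the log2 scale, again with overlap. The probe sets were not matched to the transgene's sequence, so the values do not say how much of the signal came from it.

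In the pooled fit 4 genes passed an adjusted p of 0.05, which is 0.0202 percent of those tested, 1 higher and 3 lower. CADPS2 rose, and GFRA1, STOM and TSPYL5 fell. Before adjustment 1011 genes, 5.11 percent, had a p under 0.05, with 489 higher and 522 lower, a share close to the threshold itself. All 4 genes had 6 actin arrays beyond 3 parental arrays, and each also passed in both lines' own comparisons with the parental line, as no other gene did in the same direction. Those comparisons share the 3 parental arrays. They called 26 genes in NLS-actin cells (0.131 percent) and 33 in WT-actin cells (0.167 percent). Without any single parental array, or without WT-actin replicate 1 or 2, 0 genes passed in the pooled fit, with 641 to 1023 at an unadjusted p under 0.05. Without WT-actin replicate 3 the count was 3, and without NLS-actin replicates 1, 2 and 3 it was 1, 3 and 2.

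CADPS2 encodes a protein that primes dense-core vesicles for calcium-dependent exocytosis. Its signal was 625, 744 and 657 in NLS-actin cells, 1763, 1195 and 1641 in WT-actin cells, and 163, 188 and 139 in the parental line. Every actin array was higher than every parental array by at least 1.74 on the log2 scale, and the WT-actin arrays were the highest. The pooled log2 fold change was 2.64 (standard error 0.33, adjusted p = 0.0253 from limma). The actin lines also differed from each other by -1.17 on the log2 scale, NLS-actin over WT-actin (standard error 0.21, adjusted p = 0.0234), a comparison that does not use the parental arrays. CADPS2 has 1 probe set, so that no second measurement of it exists on the array.

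GFRA1 is the membrane-anchored co-receptor through which GDNF reaches the receptor kinase RET. It gave signals of 79.8, 81.3 and 96.1 in NLS-actin cells, 53.9, 75.2 and 34.5 in WT-actin cells, and 530, 414 and 369 in the parental line. All actin values lay under the gene median of 146 and all parental values above it. The pooled log2 fold change was -2.70 (standard error 0.34, adjusted p = 0.0253 from limma). Of its 2 dimmer probe sets, with pooled log2 differences of -2.07 and -1.89, the first overlapped between the groups and the second did not. GFRA1 was the only member past the threshold among 11 genes of the GDNF family of ligands and receptors. That family had no other gene without overlap.

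STOM encodes stomatin, a cholesterol-binding protein of membrane rafts that is linked to the cortical actin of red cells. The signals were 318, 395 and 300 in NLS-actin cells, 508, 510 and 810 in WT-actin cells, and 1752, 1656 and 1773 in the parental line. NLS-actin cells were lowest, WT-actin cells lay between, and the parental line was highest with little spread (1727 ± 62.6, SD, n = 3). The pooled log2 fold change was -1.95 (standard error 0.27, adjusted p = 0.0378 from limma). A second probe set read -2.11 with no overlap. Its dimmest probe set read 0.64 with overlap, at mean signals of 4.05 in the actin lines and 3.23 in the parental line, so it was near the floor of the array. In a list of 14 stomatin-family and membrane raft genes no other member was free of overlap.

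TSPYL5 belongs to the TSPY-like branch of the nucleosome assembly proteins and is known to bind the deubiquitinase USP7. Its signals were 594, 586 and 449 in NLS-actin cells, 437, 503 and 587 in WT-actin cells, and 1225, 1084 and 1237 in the parental line. Both actin lines had similar levels, 543 ± 81.4 (SD, n = 3) in NLS-actin cells and 509 ± 75.3 (SD, n = 3) in WT-actin cells, and their log2 difference was 0.09 (standard error 0.19, adjusted p = 0.941). The pooled log2 fold change was -1.18 (standard error 0.16, adjusted p = 0.0378 from limma). TSPYL5 was the gene closest to the threshold on its inner side, and GSTM3, at an adjusted p of 0.205, the closest outside. Its relative TSPYL1 was free of overlap in the other direction, at 4722 to 5377 in the actin lines and 3733 to 4274 in the parental line (log2 fold change 0.31, adjusted p = 0.704 with 1 mean per line and 0.94 in the pooled fit).

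**Figure D1:**
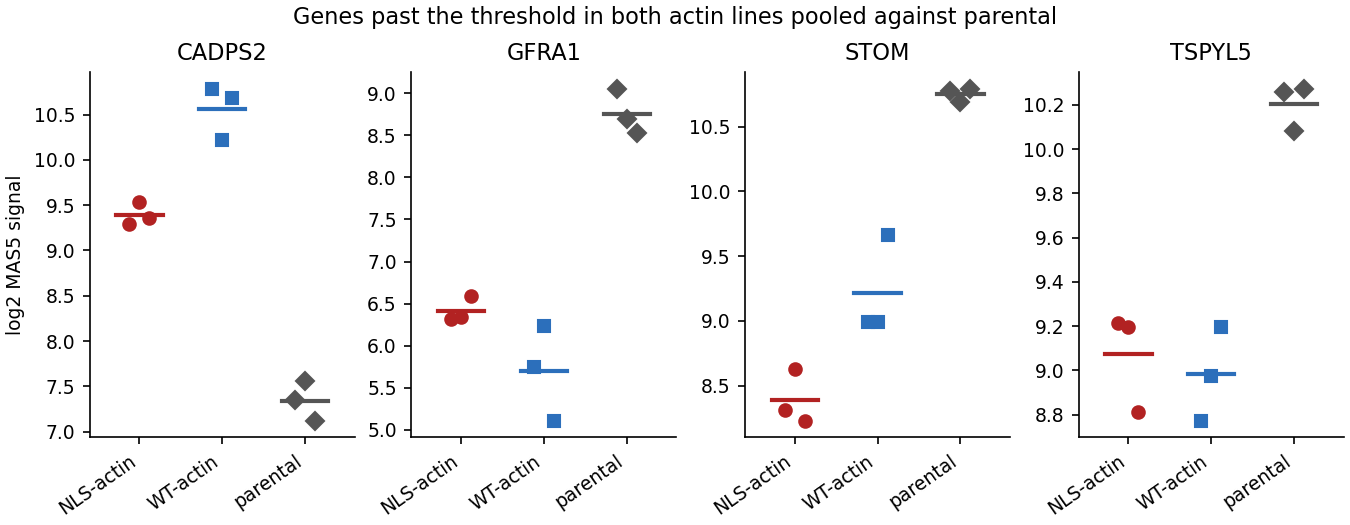
Log2 MAS5 signal of the 4 genes past an adjusted p of 0.05, in NLS-actin, WT-actin and parental arrays. Each point is 1 array, each horizontal bar is the mean of 3 arrays, and each axis begins above 0. All 6 actin arrays lie above the parental arrays for CADPS2 and below them for GFRA1, STOM and TSPYL5.

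The pooled fit takes the difference between the actin lines as spread. A fit with 1 mean per line, in which the average of both actin lines was set against the parental line, called 12 genes (0.0607 percent), 2 higher and 10 lower. The 4 genes above were among them. Of the 12, 10 were free of overlap. The further 6 were HLTF, GSTM3, CXCL8, BMPR1B and SPOCK1, which were lower, and REPS2, which was higher. The other two, NDN and SULF1, were excluded by the overlap rule. HLTF and BMPR1B, and further below CADM1, CPNE8, SLC2A3 and the other genes from the set of 19, were chosen after their values were seen.

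HLTF, a helicase-like protein that takes part in the repair of stalled replication forks, had signals of 267, 322 and 239 in NLS-actin cells, 72.5, 36.1 and 54.5 in WT-actin cells, and 610, 885 and 657 in the parental line. The 3 lines formed 3 separate levels. The pooled log2 fold change was -2.56 with a standard error of 0.63 (adjusted p = 0.711 in the pooled fit of limma and 0.00237 with 1 mean per line), and the difference of NLS-actin over WT-actin was 2.39 (standard error 0.30, adjusted p = 0.00252). GSTM3, a glutathione transferase of the mu class, had signals of 56.9, 144 and 73.8 in NLS-actin cells, 205, 133 and 228 in WT-actin cells, and 746, 645 and 543 in the parental line. Its log2 fold change was -2.36 (adjusted p = 0.205 in the pooled fit and 0.0144 with 1 mean per line). Its dimmer probe set read -1.35, with overlap.

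REPS2, a protein of receptor endocytosis, was the second gene higher in the fit with 1 mean per line (adjusted p = 0.0228, and 0.382 in the pooled fit of limma). Its signals were 345, 409 and 314 in NLS-actin cells, 668, 477 and 1002 in WT-actin cells, and 155, 171 and 114 in the parental line. Unlike CADPS2 it has 3 probe sets, and all of them were free of overlap, with pooled log2 differences of 1.77, 1.40 and 2.09. SPOCK1, a secreted proteoglycan of the testican family, had 218, 159 and 235 in NLS-actin cells, 297, 345 and 409 in WT-actin cells, and 902, 559 and 811 in the parental line. It was lowest in NLS-actin cells, and its pooled log2 fold change was -1.49 (adjusted p = 0.393, and 0.0286 with 1 mean per line). BMPR1B, a type I receptor for bone morphogenetic proteins, was dim in the actin lines, at 41, 66.6 and 79.4 in NLS-actin cells and 24.9, 16.9 and 14.2 in WT-actin cells, against 261, 159 and 160 in the parental line.

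SYNM and POPDC1 completed the 10 genes with the smallest p among those free of overlap. SYNM, the intermediate filament protein synemin, had 420, 362 and 436 in NLS-actin cells, 368, 344 and 380 in WT-actin cells, and 682, 723 and 691 in the parental line. The spread within each line was small, and the lines differed by -0.86 on the log2 scale (standard error 0.16, adjusted p = 0.367 from limma). POPDC1, a cAMP-binding membrane protein best known from muscle, read 3.64 to 19 in the actin lines and 0.494 to 0.879 in the parental line, all near the floor. Its other probe set, also near the floor, read -1.34 with overlap. The log2 difference of 3.88 (adjusted p = 0.41 from limma) therefore has no reliable size or direction.

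The size of a shift depended on the level. Among the 576 genes without overlap 199 had a fold above 2, and 180 of these lay at or below the median level of all genes. The other 19 genes lay above it, 5 higher and 14 lower. The median absolute log2 fold change of the 332 genes above the median level was 0.35. Besides CADPS2 and REPS2, the higher genes were CADM1, CPNE8 and SLC2A3. CADM1, an adhesion molecule of the immunoglobulin superfamily, had 352, 679 and 386 in NLS-actin cells, 383, 329 and 301 in WT-actin cells, and 210, 221 and 119 in the parental line (log2 fold change 1.14, adjusted p = 0.778). CPNE8, a calcium-dependent lipid-binding copine, read 361, 309 and 341 in NLS-actin cells, 462, 461 and 578 in WT-actin cells, and 189, 214 and 210 in the parental line (fold just above 2, adjusted p = 0.549). SLC2A3, a glucose transporter, read 421, 361 and 392 in NLS-actin cells, 266, 183 and 292 in WT-actin cells, and 169, 136 and 147 in the parental line (log2 fold change 1.04, adjusted p = 0.874). The closest pair of arrays in SLC2A3 was WT-actin replicate 2 and parental replicate 1, 183 against 169.

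The 14 lower genes were STOM, TSPYL5, HLTF, GSTM3, CXCL8, SPOCK1, ELFN2, LOC100506929, TOX2, HERC5, BAMBI, LYPD1, NAV2 and PID1. BAMBI is a decoy receptor that dampens TGF-β and BMP signalling, and its signals were 203, 152 and 154 in NLS-actin cells, 371, 370 and 310 in WT-actin cells, and 680, 405 and 542 in the parental line (log2 fold change -1.13, adjusted p = 0.93). HERC5, the ligase that attaches the interferon-induced modifier ISG15, ranged from 91 to 194 in the actin lines and from 210 to 364 in the parental line. NAV2, a neuron navigator protein, and ELFN2, a leucine-rich repeat membrane protein, had log2 fold changes of -1.08 and -1.42. The nuclear HMG-box protein TOX2 had the narrowest gap, 0.0147 on the log2 scale, where NLS-actin replicates 1 and 3 (351 and 350) met parental replicate 3 (354). FAM20C, with a log2 difference of -1.14 and an overlap of 0.0575, was the closest gene outside the rule. Some of the 14 lower genes met the rule only in some settings. After quantile normalization HERC5, BAMBI and PID1 overlapped, with gaps of -0.26, -0.16 and -0.13. With array medians subtracted they overlapped as well, as did LYPD1 (-0.14), LOC100506929 (-0.06) and NAV2 (-0.05). For the 19 genes, 7 of 25 further probe sets (28 percent) were free of overlap in the same direction and 20 (80 percent) had the same sign. Over all genes these shares were 2 percent and 55.4 percent of 21316 further probe sets. Probe sets of 1 gene share the same arrays, and their agreement is no test.

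**Figure D2:**
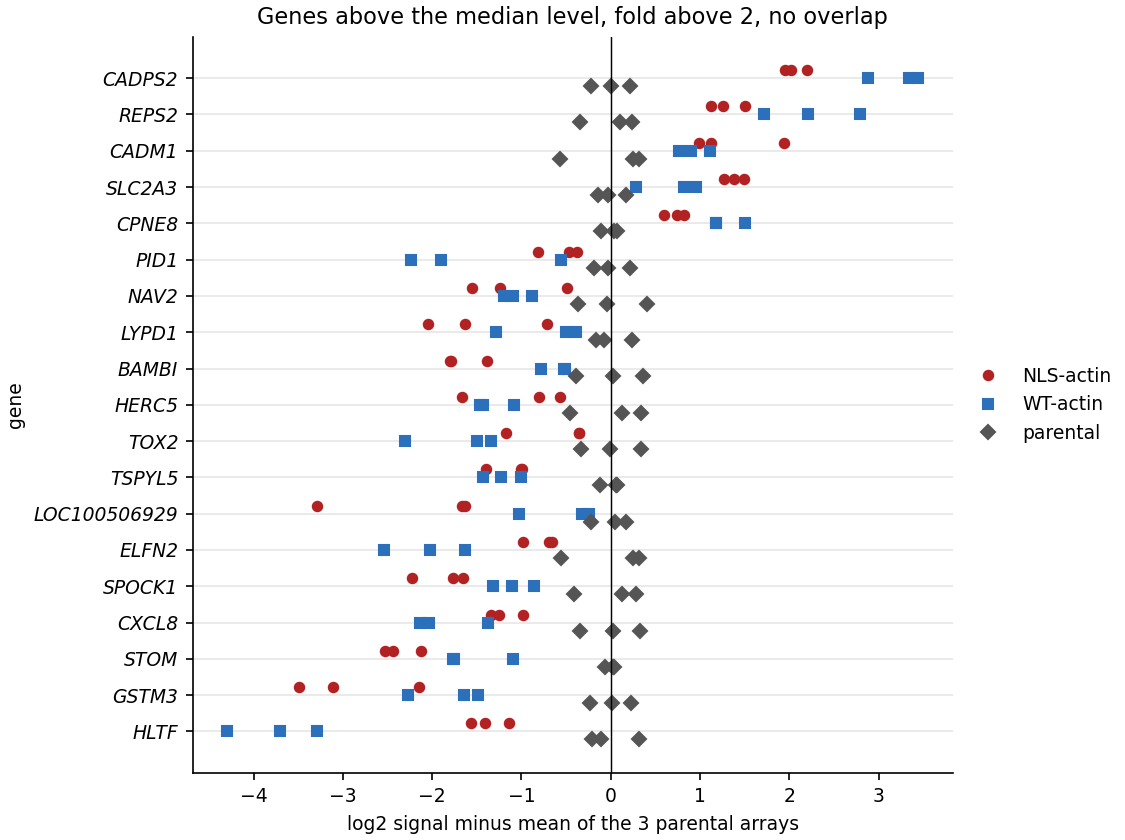
Log2 signal minus the mean of the 3 parental arrays (x axis) for the 19 genes above the median level with a fold above 2 and no overlap (y axis, ordered by pooled log2 fold change), with 1 point per array and a shape and colour per line. CADPS2 to CPNE8 lie to the right and the 14 lower genes to the left. HLTF, CADPS2 and BAMBI are among the genes that show the 2 actin lines apart from each other. STOM, REPS2, CXCL8 and ELFN2 do so as well, among others.

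The 576 genes were spread over all 23 chromosomes considered, but the direction was not even among them. On chromosome 12, 33 of 36 genes without overlap were higher in the actin lines, and on chromosome 18, 14 of 18. On the remaining chromosomes 196 were higher and 326 lower. Chromosome 14 held 0 higher and 19 lower. Above the median level all 29 such genes of chromosome 12 were higher, by 0.17 to 1.04 on the log2 scale with a median of 0.32. The brightest were SLC38A2, an amino acid transporter, at 8830 to 12773 in the actin lines and 7325 to 8719 in the parental line, CKAP4, a protein of the endoplasmic reticulum (log2 fold change 0.34), and TMBIM6, an inhibitor of cell death in the same membranes (0.36). CPNE8 and SLC2A3 also lie on chromosome 12. On chromosome 18 the brightest were VPS4B, an ATPase of endosomal sorting (0.28), and LMAN1, a cargo receptor of the early secretory path (0.19), and TYMS, the thymidylate synthase (0.33), was among them. None of these small shifts passed in the pooled fit of limma. The genes named here for their chromosome were chosen after their values were seen.

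The same direction was found over all expressed genes of these chromosomes and not only in those without overlap. For each array the median difference from the parental mean was taken over the genes of a chromosome above the median level, after the array's own median was set to 0. On chromosome 12 (555 genes) it was 0.16, 0.10 and 0.18 in NLS-actin cells, 0.14, 0.18 and 0.12 in WT-actin cells, and 0.01, -0.02 and 0.03 in the parental line. The pooled shift was 0.15 on the log2 scale, a fold of 1.11, and 75.9 percent of the genes had a positive log2 fold change where 46.5 percent of all such genes did. On chromosome 18 (152 genes) the shift was 0.16, a fold of 1.12, with 82.2 percent positive. On chromosome 21 (104 genes) it was 0.09, with 68.3 percent positive. In stretches of 20 Mb the median log2 fold change was 0.09 to 0.16 along chromosome 12. Along chromosome 18 it was 0.10 to 0.25, apart from the last stretch, which held 3 genes (0.05).

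Chromosomes 12, 18 and 21 were the only ones of 23 on which all 6 actin arrays lay above all 3 parental arrays, and chromosome 7, with a shift of -0.04, the only one on which they lay below. The two-sided exact permutation p was 0.0119 for each of the 4, which is the smallest that 6 arrays against 3 can give. After adjustment over 23 chromosomes it was 0.0685, so that none passed. With so few arrays the adjusted p could pass only if more chromosomes had reached this smallest p, so it decides nothing about the shifts. The permutation also took all arrays as independent, though 3 came from each line. For chromosome 21 the arrays overlapped when all genes with a position were used, or the mean in place of the median, or all probe sets of a gene. For chromosome 18 they overlapped with all genes only. Further chromosomes differed between the actin lines. Chromosome 14 stood at 0.03 in NLS-actin cells but at -0.29 in WT-actin cells. Chromosome 16 stood at 0.16 in NLS-actin cells but at -0.06 in WT-actin cells, where all 3 arrays lay below the parental arrays, and chromosome 11 stood at -0.03 in NLS-actin cells but at 0.15 in WT-actin cells. DNA was not measured in this study.

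**Figure D3:**
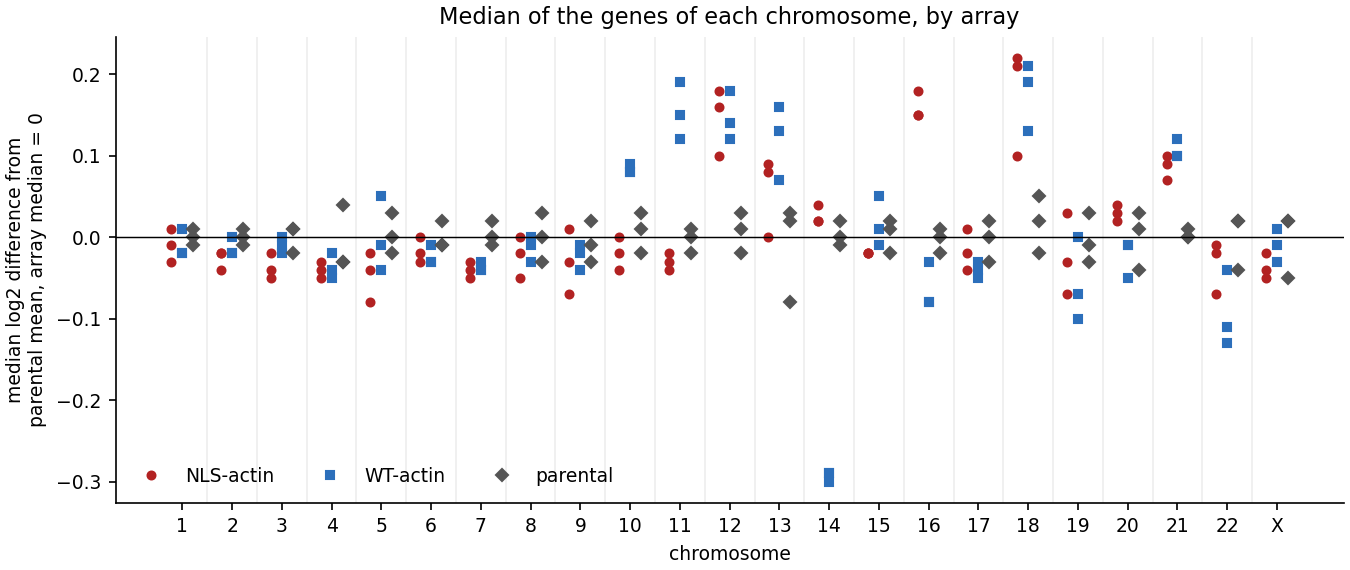
Median log2 difference from the parental mean over the genes of each chromosome above the median level (y axis, array median set to 0) by chromosome (x axis), with 1 point per array. Chromosomes 12, 18 and 21 lie above the parental arrays in both actin lines, chromosome 14 lies at -0.29 in WT-actin cells, and chromosome 16 lies at 0.16 in NLS-actin cells and -0.06 in WT-actin cells.

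Among 20 genes of chemokines, cytokines and cyclooxygenase, 5 (25 percent) were free of overlap and all 5 were lower, where 1.68 percent of all genes were. This list was chosen with earlier results of these data known, so the share is a description and no test. The 5 genes were the chemokines CXCL8, CXCL6 and CCL20, the NF-κB inhibitor gene NFKBIA, and PTGS2, the inducible cyclooxygenase. No member passed the pooled fit at an adjusted p of 0.05, and 7 had an unadjusted p under 0.05. The median log2 fold change of the list was -0.64, against -0.05 over all genes, with -0.65 in NLS-actin cells and -0.35 in WT-actin cells, and it was -0.58 without the 3 arrays that departed together. The median of the list lay between -0.83 and -0.54 in the NLS-actin arrays, between -0.49 and -0.19 in the WT-actin arrays, and between -0.22 and 0.28 in the parental arrays, so that WT-actin and parental arrays overlapped.

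Some promoters of this group hold an element through which such genes are known to be switched on. The 9 letters GGAATTTCC, 1 of the forms of the κB element that NF-κB binds, were searched on both strands of the RefSeq promoters, which run from 250 bases before to 50 bases after the start of a gene. They were found in 7 of the 16 list members with a promoter in the table (43.8 percent), against 69 of 15382 genes (0.449 percent). These letters were chosen after the sequences had been read, and 5 of the 7 belong to the related genes CXCL1, CXCL2 and CXCL3 or CXCL5 and CXCL6, so both shares are a description and no test. PTGS2 and CCL20 did not hold them. The 7 stretches below are 69 bases long, in build GRCh38.p14, 5′ to 3′ on the strand of the gene, with the match in capitals, and they are shown because 3 of the 5 genes without overlap are among them.
CXCL8, chr4:73740448-73740516, plus strand: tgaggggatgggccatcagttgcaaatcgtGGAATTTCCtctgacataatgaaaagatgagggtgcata
CXCL6, chr4:73836559-73836627, plus strand: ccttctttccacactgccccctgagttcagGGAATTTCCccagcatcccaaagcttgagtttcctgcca
CXCL5, chr4:73998729-73998797, minus strand: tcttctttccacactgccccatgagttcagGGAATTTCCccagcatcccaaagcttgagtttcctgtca
CXCL1, chr4:73869285-73869353, plus strand: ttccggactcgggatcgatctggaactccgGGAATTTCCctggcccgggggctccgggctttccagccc
CXCL2, chr4:74099234-74099302, minus strand: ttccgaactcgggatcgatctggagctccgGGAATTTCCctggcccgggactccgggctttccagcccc
CXCL3, chr4:74038729-74038797, minus strand: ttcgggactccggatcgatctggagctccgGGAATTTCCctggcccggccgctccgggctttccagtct
NFKBIA, chr14:35404792-35404860, minus strand: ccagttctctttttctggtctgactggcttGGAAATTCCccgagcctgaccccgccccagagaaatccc

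In NFKBIA the capitals are the same element read on the opposite strand. The CXCL5 and CXCL6 stretches are identical at 66 of 69 bases and those of CXCL1 and CXCL3 at 62, while CXCL6 and CXCL8 share 19. The match lies 69 to 91 bases before the start in all 7. CXCL8, CXCL6 and NFKBIA were the 3 of the 7 without overlap. Among all 264 genes lower without overlap that have a promoter in the table, 4 held the letters. A match describes the letters of the window and not the binding of a factor, and of the 4 genes past the threshold only GFRA1 and STOM had a promoter in the table, neither with these letters.

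CXCL8, interleukin 8, which attracts neutrophils, had signals of 634, 498 and 530 in NLS-actin cells, 307, 287 and 485 in WT-actin cells, and 1275, 990 and 1573 in the parental line. The highest actin array was well under the lowest parental array. The pooled log2 fold change was -1.52 (standard error 0.26, adjusted p = 0.205 from limma, and 0.0228 with 1 mean per line), and a second, dimmer probe set read -1.67 with no overlap. CXCL6, the neighbour of CXCL8 among the genes measured on chromosome 4, had 122, 214 and 191 in NLS-actin cells, 146, 224 and 110 in WT-actin cells, and 360, 357 and 234 in the parental line. The gap between WT-actin replicate 2 and parental replicate 3 was narrow, 224 against 234. NFKBIA had 486, 602 and 451 in NLS-actin cells, 394, 414 and 471 in WT-actin cells, and 778, 657 and 709 in the parental line (log2 fold change -0.62, adjusted p = 0.893). The gene lies on chromosome 14, which stood at -0.29 as a whole in WT-actin cells and at 0.03 in NLS-actin cells. Its own log2 differences from the parental line were -0.75 and -0.49 in that order.

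PTGS2 had 558, 336 and 566 in NLS-actin cells, 623, 613 and 533 in WT-actin cells, and 764, 748 and 1020 in the parental line (log2 fold change -0.66, adjusted p = 0.94). CCL20, a chemokine for dendritic cells and Th17 cells, read at most 8.97 in the actin lines and 9.98 to 19.1 in the parental line, so its values were near the floor. The rest of the list overlapped. CXCL1 was lower in WT-actin cells, at 466, 395 and 302, while NLS-actin cells read 902, 1371 and 766 and the parental line 1620, 1324 and 1174. The monocyte chemokine CCL2 had the opposite order of actin lines, 390, 367 and 181 in NLS-actin cells, 2358, 1533 and 728 in WT-actin cells, and 1481, 1278 and 2009 in the parental line. CXCL2, CXCL3 and CXCL5 read at most 49.4 in any array. IL1RN and IL18, the brightest members, had log2 differences of 0.17 and 0.15 with overlap.

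**Figure D4:**
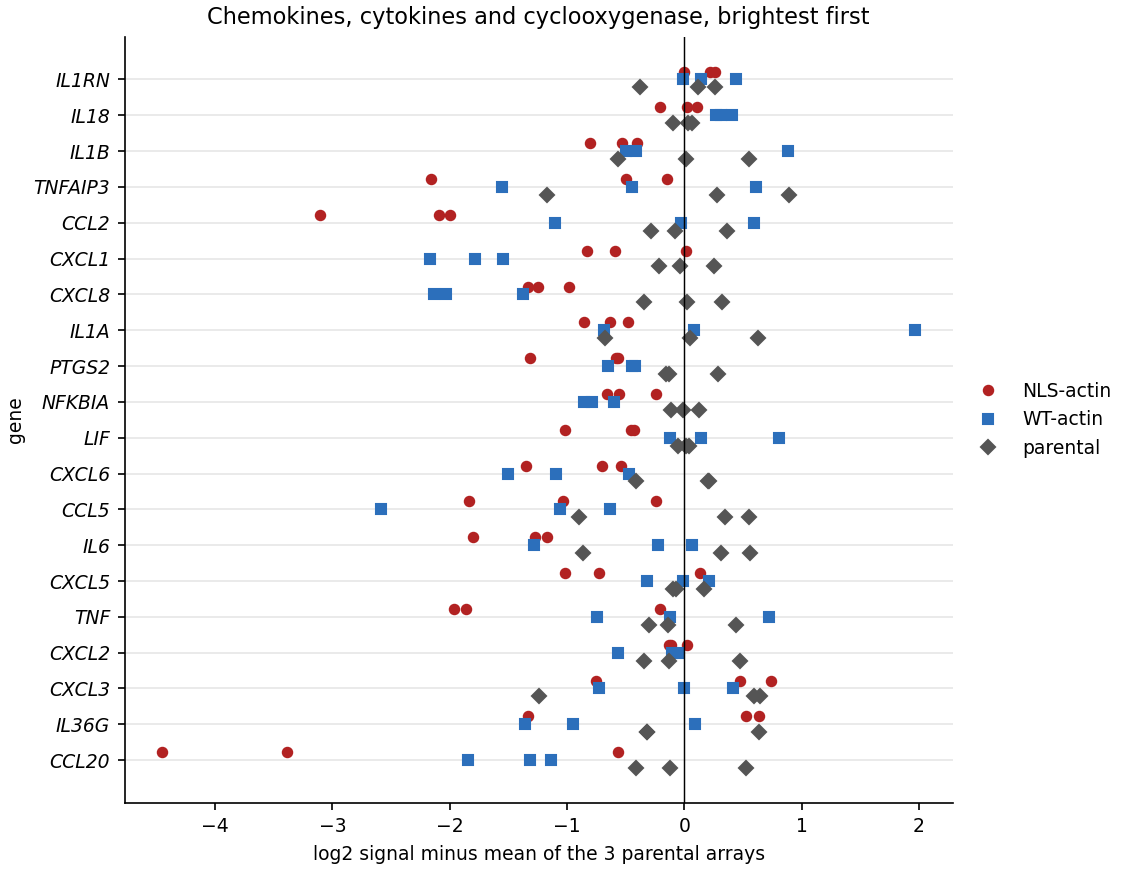
Log2 signal minus the mean of the 3 parental arrays (x axis) for the 20 measured chemokine, cytokine and cyclooxygenase genes (y axis, brightest first), with 1 point per array. CXCL8, PTGS2, NFKBIA, CXCL6 and CCL20 have all 6 actin arrays to the left of the parental arrays, and CXCL1 and CCL2 show the actin lines apart.

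Of 32 interferon-induced genes measured, HERC5 and IRF1 were lower in all 6 arrays (6.25 percent, against 1.68 percent of all genes) and 0 were higher. HERC5 overlapped after quantile normalization and with array medians subtracted. The list was chosen with earlier results of these data known, so the share is a description and no test. An unadjusted p under 0.05 was found for 7, against 5.11 percent of all genes, and none passed in limma. IRF1, a transcription factor of the interferon response, ranged from 231 to 404 in the actin lines and from 427 to 674 in the parental line (log2 fold change -0.81, adjusted p = 0.94). The median of the list was -0.37, and -0.54 without the 3 arrays that departed together. It lay between -0.74 and -0.21 in NLS-actin arrays, -0.59 and 0.35 in WT-actin arrays, and -0.17 and 0.30 in parental arrays. The 3 arrays that departed together were the highest of their lines for MX1, an antiviral GTPase, with 264, 370 and 296 in NLS-actin cells, 2480, 571 and 416 in WT-actin cells, and 803, 1098 and 717 in the parental line. They were also the highest for OAS1, a sensor of double-stranded RNA, with 1029, 2734 and 967 in NLS-actin cells, 3518, 1210 and 891 in WT-actin cells, and 1492, 3141 and 1062 in the parental line.

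The counts of actin-related genes without overlap were near the 2.91 percent of all genes. Contractile targets of SRF and MRTF held 0 of 20 measured. Of these, 6 had a positive and 14 a negative log2 difference, with a median of -0.09, and 1 had an unadjusted p under 0.05. The 15 immediate early genes of SRF also held 0, none of them with an unadjusted p under 0.05. Among 34 genes of actin isoforms and actin dynamics the median was 0.09, but -0.11 with averaged probe sets and -0.03 without cross-hybridizing ones, and the actin-severing cofilin CFL2 was the only member without overlap (2.94 percent), at 1468 to 1966 in the actin lines and 2217 to 2642 in the parental line (log2 fold change -0.50, adjusted p = 0.893). In the list of 30 genes of focal adhesions and integrins it was talin, TLN1 (3.33 percent), at 1101 to 1183 in the actin lines and 1300 to 1334 in the parental line (-0.21, adjusted p = 0.94).

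The study names genes for adhesion, motility and survival in NLS-actin cells against the parental line. It reports ITGB1, MYL9, PAK1 and VCL as lower and NFATC1 and BCL2 as higher. Its array threshold was a fold above 2 at a p under 0.05, with no adjustment named. It set aside genes that WT-actin changed alike, and measured the named genes again by qRT-PCR, with the same directions. By Western blot it found less β1 integrin and phosphorylated myosin light chain, and similar total vinculin. The pooled comparison asks a different question, and in it the 5 genes below overlapped. ITGB1, the β1 integrin, differed by 0.15, VCL, vinculin, by 0.18, NFATC1 by 0.07, BCL2 by -0.48 and MYL9, the myosin light chain, by -0.97 on the log2 scale, with adjusted p of 0.94 or more in limma. The direction of all 5 depended on the setting. ITGB1 and VCL read -0.06 and -0.04 after quantile normalization and -0.43 and -0.68 with the mean of their probe sets, and ITGB1 read -0.42 without cross-hybridizing sets. NFATC1 and BCL2 read -0.27 and 0.41 with the mean of their probe sets. Without cross-hybridizing sets NFATC1 read -1.84 and MYL9 read 0.30, and NFATC1 was also negative without WT-actin replicate 1 (-0.11), without the 3 arrays of highest ACTB ratio (-0.28) and with that ratio as a covariate (-0.14). In the main settings, with each gene read from the brightest of its several probe sets, NLS-actin over parental gave MYL9 -1.61, ITGB1 -0.04, VCL 0.18, NFATC1 0.30 and BCL2 -0.07. WT-actin over parental gave -0.32, 0.33, 0.18, -0.16 and -0.90 in the same order. None of these passed in limma.

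Most further lists held at most 2 members without overlap each, and 24 of the 38 lists held at least 1, where 2.91 percent of all genes were without overlap. In vesicle exocytosis, with 4 of 27 genes (14.8 percent), SNAP23, a membrane fusion protein, was higher beside CADPS2 (log2 fold change 0.28), and RAB27A, which docks secretory vesicles, and NSF, which takes fusion complexes apart, were lower (-0.42 and -0.30). That share counts CADPS2 itself, and the list was chosen with earlier results of these data known. SNAP23, RAB27A and NSF cleared the parental arrays by only 0.13, 0.00 and 0.01 on the log2 scale. Among cell junction genes PERP, a desmosome protein, was higher (0.37) and the connexin GJB6 lower (-1.53). In the Wnt and Notch list the receptor LRP6 (0.26) and the dim transcription factor LEF1 were higher, but LEF1, at 32.2 to 87.1 in the actin lines and 1.57 to 17.6 in the parental line, was near the floor in parental arrays and its fold has no reliable size. LRP6 lies on chromosome 12, where all 29 genes without overlap above the median level were higher, with a median of 0.32. Of complexes that hold nuclear actin, TRRAP was lower (-0.36), as was the neuronal subunit ACTL6B at signals under 14. The receptor kinase ERBB4 (-1.32) and the adaptor GRB10 (-0.94), an imprinted gene, were lower. Of 14 simple epithelial and mesenchymal genes, the epithelial-mesenchymal factor TWIST1 was higher (0.83, at 260 to 554 in the actin lines and 195 to 250 in the parental line), and SNAI1, a factor of the same kind, was lower at signals near the floor (0.419 to 8.1 in the actin lines and 9.48 to 12.3 in the parental line). None of these passed the pooled fit of limma, and all were chosen after their values were seen.

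NLS-actin over WT-actin, a comparison without the parental arrays, called 144 genes (0.728 percent). Of the 576 genes without overlap 5 were among them (0.868 percent, near the share of all genes), CADPS2, HLTF, CHRM3, CORO1A and PROM1. Above the median level the shift was larger in WT-actin cells for 190 of 332 genes and larger in NLS-actin cells for 142. Across the whole set, 56 of 725 further probe sets (7.72 percent) were free of overlap in the same direction as the probe set used. Neighbouring genes that were both without overlap formed 19 pairs, 12 of them in the same direction, the pair of CXCL8 and CXCL6 among them.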

How the data were processed

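Total RNA of the 3 HaCaT lines was hybridised to 9 arrays, 3 per line. The authors computed MAS5 signals from the scans, and the deposited values are linear intensities scaled to an equal trimmed mean per array. The sources used here give no version or scaling target. Arrays were grouped by their titles. Nothing says whether the 3 arrays of a line came from separate cultures, so that p values measure the spread between arrays, which may be technical. Dim genes are read imprecisely, and the number of arrays limits every value.

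The log2 of each signal was taken, with no offset added. Of 54613 probe sets other than 62 controls, 41091 had 1 gene symbol in the platform annotation (41037 updated through RefSeq, 54 kept), 1801 had several and 11721 none. This gave 19775 genes, each represented by its brightest probe set, and 10523 had a choice of several. The pooled comparison used limma 3.58.1 in R 4.3.3 with 1 mean for the 6 actin arrays and 1 for the 3 parental arrays, a variance trend on level, and Benjamini-Hochberg adjustment over all genes at 0.05. Each line's own comparison and NLS-actin over WT-actin used 1 mean per line. The fit was also run on simulated arrays with independent noise and no difference between the actin lines. That run cannot show how the fit behaves where the lines differ or arrays depart together, as here. Chromosomes come from the RefSeq gene table and promoters from RefSeq (GRCh38.p14), which matched 15382 genes. Tables were made with pandas 2.3.3 in Python 3.11.15 and plots with matplotlib 3.10.9.

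The genes, lists and tests were chosen with earlier results of these data known. The rule for named genes took up to 12 rises and 12 falls among genes called, without overlap and above the median level, all genes called in both lines, up to 3 called members per list and, with fewer than 10 called, the 10 smallest p values without overlap, besides genes the study names. ACTG1 and PAK1 had no probe set with a single symbol and were not analysed here. The alternatives were quantile normalization, array medians, an added offset (8.0723, the 25 percentile over the arrays), omission of dim genes, no variance trend, 1 mean per line, the line as a random block, a replicate block, the mean of all probe sets, omission of cross-hybridizing sets, the ACTB ratio as a covariate, the study's thresholds, and omission of 1 or 3 arrays.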

Additional observations from a re-analysis of the deposited data

Results flagged for a closer look

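Among 39 genes tested for an array far from the other actin arrays, 4 had such an array, where chance gives about 1 in 20. For ACTB it was WT-actin replicate 1, whose gap to the next array was 0.706 of the range of the 6 actin arrays. For CADM1 it was NLS-actin replicate 2 (0.694), the highest array. NLS-actin replicate 2 was also the lowest array for PTGS2 (0.747), and WT-actin replicate 2 the lowest for CXCL2 (0.747).

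Differences between the actin lines were found for 4 of the genes described, tested in limma as NLS-actin over WT-actin. HLTF was higher in NLS-actin cells (adjusted p = 0.00252), as was CXCL1 (adjusted p = 0.0244). CADPS2 was lower in NLS-actin cells (adjusted p = 0.0234), as was CCL2 (adjusted p = 0.0234). For HLTF and CADPS2 both lines nevertheless lay on 1 side of the parental arrays.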

How the results depend on the processing

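The number of genes past the threshold in the pooled fit was 4, and it was 4 with an offset, with the line as a random block (consensus correlation -0.0903) and with the ACTB ratio as a covariate. The line block does not guard against spread between lines, since the correlation was negative and the parental group is a single line. With it the adjusted p of CADPS2 in limma went from 0.0253 to 0.0147. The number of genes was 3 without dim genes or without cross-hybridizing probe sets. It was 2 after quantile normalization, with array medians subtracted and with the mean of all probe sets, 0 without the variance trend and without the 3 arrays of highest ACTB ratio in their lines (916 and 864 genes at an unadjusted p under 0.05), 12 with 1 mean per line and 420 at an unadjusted p under 0.05 with a fold above 2. Of genes past the threshold and without overlap, the last 2 settings gave 10 and 167, and the other settings the same counts as before. Omission of 1 array gave 0 to 3 genes for both counts. Residual correlations of arrays of the same replicate number ranged from -0.596 to 0.79, while NLS-actin replicate 2, WT-actin replicate 1 and parental replicate 2 correlated at 0.586 to 0.79 with each other, so the numbers were not taken to pair the arrays, and with a replicate block 0 genes passed (888 at an unadjusted p under 0.05). The 576 genes without overlap became 332 without dim genes, 2591 without the 3 departing arrays and 712 to 1590 without 1 array, since fewer arrays overlap less.

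Under alternatives added after the data were seen, the 26 genes of NLS-actin cells against the parental line became 11 without dim genes, 10 without the variance trend, 10 with the mean of all probe sets, 15 without cross-hybridizing sets and 4 to 27 without 1 array. The 33 of WT-actin cells became 19, 12 and 14 in the first 3 of these settings and 9 to 42 without 1 array. With array medians subtracted the split of higher and lower genes was 7 and 15 in NLS-actin cells, against 4 and 22, and 15 and 22 in WT-actin cells, against 8 and 25. The 5 genes without overlap that differed between the actin lines became 2 without dim genes or the variance trend, 17 without the 3 departing arrays and 3 to 7 without 1 array. The shift of chromosome 12 was 0.11 after quantile normalization, and that of chromosome 21 was 0.12 there, 0.07 with the mean of all probe sets or the mean over its genes, and 0.08 with all genes. Without 1 array the shifts of chromosomes 12, 18 and 21 were 0.13 to 0.17, 0.15 to 0.19 and 0.09 to 0.11.

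CADPS2 passed in 13 of 21 alternatives, GFRA1 in 10 of 20, TSPYL5 in 8 of 21 and STOM in 6 of 21. STOM read 0.64 when cross-hybridizing sets were left out, since only its dimmest probe set remained. Of 126 list medians under alternatives, 116 moved by less than the spread between the actin arrays.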

Other observations

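The 13522 probe sets without a single gene symbol, which entered no comparison, had 109 with all 6 actin arrays above and 234 with all 6 below the 3 parental arrays (2.54 percent together). With a fold above 2 and a level above the gene median, 0 were higher and 4 lower.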
